A study of Homo sapiens with 3 samples.

Results

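Hub promoters were taken here as captured HindIII fragments that were joined to 50 or more different fragments of the same chromosome. Partners were counted over the union of the promoter capture Hi-C (PCHi-C) calls of 3 biological replicates of hESC-CM. Of the 18419 promoter fragments with a same-chromosome call, 414 met this limit, which is 2.25%, and 19075 fragments had a call of any kind. The hubs were chosen by their number of partners, so it and the interactions it counts are given as a description and carry no test. The hESC-CM were cardiomyocytes made in vitro from human embryonic stem cells of the WA09 (H9) line with a commercial kit, and were enriched in a medium rich in lactate and lacking glucose. Per the labels, their purity was checked with the cardiomyocyte markers MYH7 and TNNT2 by flow cytometry and qPCR before fixation. The replicates were the 1 condition analysed here, from 1 line, with no untreated or control samples. The labels call them biological replicates and do not say whether they came from separate differentiations, so the spread between them may be partly technical. PCHi-C measures contacts and not RNA, so cell type markers could not be checked in these files.

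In PCHi-C, chromatin is crosslinked, cut with the restriction enzyme HindIII and ligated, so that fragments close together in the nucleus become joined, and the joined molecules that carry a promoter are then pulled out with baits. A promoter can contact many distal fragments, among them enhancers, the bodies of neighbouring genes and other promoters, and most contacts form within domains along the chromosome. Each call had a CHiCAGO score, which rises as read pairs exceed the number modelled from distance and noise. The lowest score listed was 5, so a pair missing from a replicate was not called there, which does not show that it made no contact. An interaction was counted as shared when both fragments had the same coordinates in each replicate.

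The promoter sequences of 4 hubs are shown because they differ widely in composition. They are the 250 bases before the transcript start, read 5′ to 3′ on the strand of the gene from GRCh37. Capitals mark TATAAA (the TATA box), CCAAT or GGGCGG (a GC box) on either strand. GRIN3A, a subunit of NMDA-type glutamate receptors, had contacts over several Mb. HAND2, a transcription factor of the developing heart, MYOZ2, a protein of the muscle Z-disc, and RYR2, the calcium release channel of the sarcoplasmic reticulum, were hubs of cardiac genes. The windows lie at chr9:104500930-104501179 on the minus strand (GRIN3A), chr4:174451381-174451630 on the minus strand (HAND2), chr4:120056737-120056986 on the plus strand (MYOZ2) and chr1:237205234-237205483 on the plus strand (RYR2).
GRIN3A: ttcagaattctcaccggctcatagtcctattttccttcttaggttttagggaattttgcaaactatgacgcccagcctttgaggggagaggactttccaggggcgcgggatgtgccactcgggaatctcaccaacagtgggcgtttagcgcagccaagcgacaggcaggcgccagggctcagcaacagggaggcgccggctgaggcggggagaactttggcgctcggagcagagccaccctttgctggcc
HAND2: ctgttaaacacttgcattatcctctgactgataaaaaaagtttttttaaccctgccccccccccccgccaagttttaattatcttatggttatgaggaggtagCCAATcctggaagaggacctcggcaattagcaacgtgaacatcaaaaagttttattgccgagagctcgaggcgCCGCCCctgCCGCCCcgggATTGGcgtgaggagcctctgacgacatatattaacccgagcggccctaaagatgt
MYOZ2: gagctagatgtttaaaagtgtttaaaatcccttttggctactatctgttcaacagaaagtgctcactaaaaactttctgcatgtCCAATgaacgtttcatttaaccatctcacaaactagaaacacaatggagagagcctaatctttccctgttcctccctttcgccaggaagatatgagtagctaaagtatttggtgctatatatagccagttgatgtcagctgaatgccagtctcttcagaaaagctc
RYR2: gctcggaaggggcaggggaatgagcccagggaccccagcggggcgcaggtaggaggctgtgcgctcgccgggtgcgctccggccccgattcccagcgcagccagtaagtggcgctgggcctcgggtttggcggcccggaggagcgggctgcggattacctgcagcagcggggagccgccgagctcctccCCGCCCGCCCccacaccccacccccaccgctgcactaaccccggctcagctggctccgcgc
Their GC content ran from 39.2% in MYOZ2 through 49.6% in HAND2 and 58.8% in GRIN3A to 75.2% in RYR2. HAND2 held CCAAT and GGGCGG 2 times each, and GRIN3A held none of the 3 motifs.

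Over all hubs with the main protein-coding start of a gene in the fragment, the promoters were close to other promoters in most sequence features. The motif core AGGNGGC was found less often. In the 250 windows of hubs from 250 bases before to 50 bases after the start, the median GC content was 63.0%, against 64.3% in the 11549 windows of all promoter fragments. A ratio of observed to expected CpG of 0.6 or more, a usual sign of a CpG island, was found in 76.0% of hub windows and 72.0% of all windows. TATAAA was present in 9.60% of hub windows and 8.99% of all windows, CCAAT in 39.6% and 35.3%, and GGGCGG in 62.8% and 64.2%. AGGNGGC, the core of the motif of the boundary protein CTCF, was in 37.2% and 44.8%, counted on both strands as were the others. These matches describe letters in a window and do not show that a factor was bound. The captured fragments of hubs had a median length of 5236 bp against 6563 bp for all promoter fragments. Near-identical copies elsewhere in the genome, at 95% identity over 1000 bp, were found for 3 hubs, which is 0.725%, and for 1.01% of all promoter fragments.

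The sequences of 2 partner fragments are shown because, among partners short enough to print whole, they were called by the most hubs in all 3 replicates. They are whole HindIII fragments on the plus strand of GRCh37, and capitals mark the cut end. The fragment at chr1:145043289-145043514 was a partner of 8 hubs in all 3 replicates, and its highest scores were with the ZNF697/PHGDH hub, at 49.73, 68.11 and 93.52 in replicates 1, 2 and 3 over 24853 kb. The fragment at chr9:104481828-104482013 was also a partner of 8 hubs in all 3 replicates, with scores of 26.56, 35.87 and 36.9 for the olfactory receptor hub OR13D1 over 2977 kb.
chr1 partner: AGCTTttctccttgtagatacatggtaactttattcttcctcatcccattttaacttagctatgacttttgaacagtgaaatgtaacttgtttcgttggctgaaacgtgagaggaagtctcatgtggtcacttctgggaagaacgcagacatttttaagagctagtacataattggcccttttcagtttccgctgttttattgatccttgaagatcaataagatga
chr9 partner: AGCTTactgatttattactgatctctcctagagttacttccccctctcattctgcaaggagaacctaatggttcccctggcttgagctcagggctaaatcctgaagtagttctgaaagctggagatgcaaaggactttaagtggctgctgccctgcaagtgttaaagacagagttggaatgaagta
The chr9 fragment lay about 3 Mb from the hubs that called it, and the chr1 fragment was called both by hubs next to it, RNU2-38P and PDE4DIP, and by hubs across the centromere.

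The 414 hubs had a median of 65.5 partners and a range of 50 to 349, while the median over all promoter fragments with a same-chromosome call was 6. They were 2.25% of those fragments and held 33006 interactions, 17.1% of the 193054 same-chromosome interactions. Partners numbered 75 or more in 154 hubs and 100 or more in 82. The limit cut through a continuous range, with 17 fragments at 50 partners and 21 at 49. Just inside, in genome order, ADI1 had 20, 18 and 25 partners in replicates 1, 2 and 3, and AC093865.1 had 26, 32 and 20. Just outside, HIST2H2AA3 had 28, 30 and 23 and C1orf53/LHX9 had 27, 38 and 31. The sets at 50 and 49 overlapped in every replicate, from 14 to 41 and from 17 to 41 in replicate 1.

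Hubs were spread unevenly over the chromosomes, and most of them carried a protein-coding start. Chromosome 2 held 49, chromosome 6 held 43, chromosome 5 held 35 and chromosome 1 held 29. As a share of promoter fragments, chromosome 18 was highest with 16 of 278 (5.76%), and gene-dense chromosome 19 had 2 of 809 (0.247%). None of the 276 promoter fragments of chromosome 22 was a hub. A protein-coding start lay in 290 hubs (70%, against 73.6% of all promoter fragments), a lncRNA start with no protein-coding start in 44 (10.6% against 9.51%), and only other starts in 60 (14.5% against 13.5%). No start of the annotation used lay in 20 hubs (4.83% against 3.45%).

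The 10 hubs with the most partners were mixed in kind. RNU2-38P, a pseudogene of the spliceosomal U2 RNA on chromosome 1, had 209, 193 and 230 partners in replicates 1, 2 and 3 and 349 in the union. MSMB, a protein secreted by the prostate, had 215, 237 and 236 and 334 in the union. The MSMB partners lay at a median of 5612 kb, with a median of 0.5 Mb of unknown bases (N) of GRCh37 between. How far these bases set the MSMB distances was not tested. OTOL1, a collagen-like protein of the inner ear, had 107, 138 and 132 and 282 in the union. The union exceeded every replicate because the replicates called partly different partners, with 34.4% of the RNU2-38P partners, 44% of the MSMB partners and 5.32% of the OTOL1 partners called in all 3. GRIN3A had 178, 180 and 166 partners, 250 in the union. PPP3R2, a testis form of the calcineurin regulatory subunit, had 150, 156 and 144, 205 in the union. These neighbouring hubs had 40.8% and 49.3% of their partners in all 3 replicates. CCNG1, cyclin G1, had 108, 109 and 114 partners and 217 in the union. The lncRNA hubs AL445204.1 and ENSG00000257880 had 215 and 209 in the union, the U4 pseudogene RNU4-11P had 213, and a fragment with no annotated start at chr5:83017307-83034754 also had 213. Scores of 10 or more left all 10 with 50 or more partners, from 50 for ENSG00000257880 to 223 for MSMB.

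**Figure D1:**
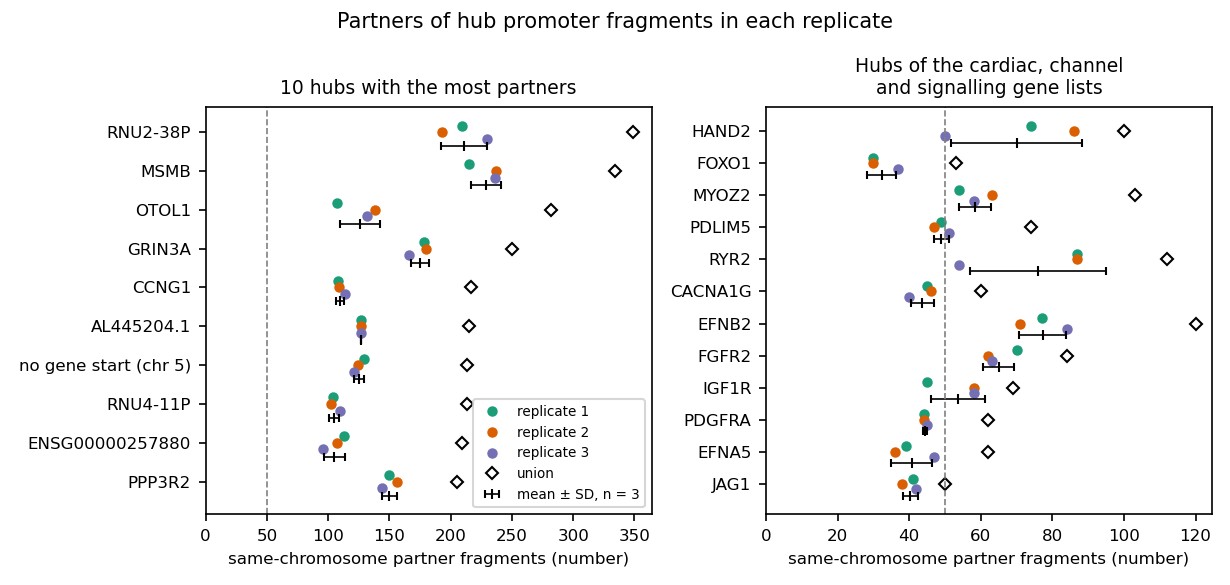
Number of same-chromosome partners (x axis) of the 10 hubs with the most partners (left) and of hubs of the cardiac, channel and signalling gene lists (right), with 1 point per replicate, the mean and SD of the 3 replicates as a bar, and the union as a diamond. The dashed line is at 50 partners, and the replicates of HAND2 (74, 86 and 50) and RYR2 (87, 87 and 54) spread more than those of PDGFRA (44, 44 and 45).

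Each replicate on its own gave smaller numbers for most hubs. The median hub had 40, 40 and 42 partners in replicates 1, 2 and 3, and 128, 115 and 133 promoter fragments reached 50 in a single replicate. Of the hubs, 91 had 50 or more partners in each replicate, with a median of 115 in the union, and 249 had 50 or more in none, with a median of 58.0. The lowest replicate of a hub had a median of 80.9% of the partners of its highest replicate. In 16 hubs it had under 50%. To read the number of partners in a replicate that had no part in the choice, fragments with 50 or more partners in the union of a pair of replicates were read in the remaining replicate. Such fragments numbered 276, 280 and 260 with replicate 1, 2 or 3 left for reading, and their medians there were 47, 46 and 49 partners, while fragments with 20 to 49 partners in the same pair had medians of 20, 19 and 19. At least 20 partners in the replicate read were found in 98.6%, 97.9% and 98.5% of the fragments chosen.

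Hub interactions were longer than those of other promoters. The median distance between fragment midpoints was 2069 kb, against 627 kb for fragments with 20 to 49 partners and 716 kb for all, and it was 1748, 1779 and 1829 kb in replicates 1, 2 and 3. Over 1 Mb lay 72.0% of hub interactions and 42.0% of all. The class from 2 to 10 Mb held 46.8% of hub interactions, 14.8% of those of fragments with 20 to 49 partners and 18.0% of all. Up to 200 kb lay 6.51% of hub interactions against 13.1% of all. This length depended on the set of calls: the 263 fragments with 50 or more partners on the merged replicates had a median distance of 552 kb, with 36.1% over 1 Mb.

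Of the 33006 hub interactions, 28.7% (9483) had a call in every replicate, 20.4% (6735) in 2 and 50.9% (16788) in 1, and the share in all 3 over all same-chromosome interactions was 24.5%. The share fell with distance. Up to 200 kb it was 51.0% for hubs and 40.9% for all interactions, and from 200 kb to 1 Mb it was 49.4% and 31.7%. From 1 to 2 Mb it was 27.7% and 18.7%. From 2 to 10 Mb it was 17.7% for hubs, 6.25% for fragments with 20 to 49 partners and 9.98% for all. Over 10 Mb it was 18.8%, 1.09% and 2.57%. Hub interactions were thus shared more often than the background in each class up to 10 Mb, and hubs make up part of that background. Fragments with 20 to 49 partners had 3996 of 8640 in all 3 up to 200 kb. They had 13520 of 33656 from 200 kb to 1 Mb and 2684 of 11498 from 1 to 2 Mb. In these 3 classes their share lay above that of all interactions and below that of hubs. Over all distances they had 20851 of 66780 in all 3, a larger share than that of hubs. Over 10 Mb, 316 of the hub interactions in all 3 lay across the chromosome 1 centromere. Of the other hub interactions over 10 Mb, 0 of 112 with 1 Mb or more of unknown bases (N) between and 3 of 883 with less were in all 3. On the merged replicates 56.3% of hub interactions were also called, against 66.5% for fragments with 20 to 49 partners and 58.3% of all. This was 91.8% up to 200 kb (84.1% of all), 36.9% from 2 to 10 Mb (22.7%) and 23.8% over 10 Mb (3.49%). Of interactions seen in 1 replicate at 2 to 10 Mb it was 8.55% for hubs and 4.82% for all.

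**Figure D2:**
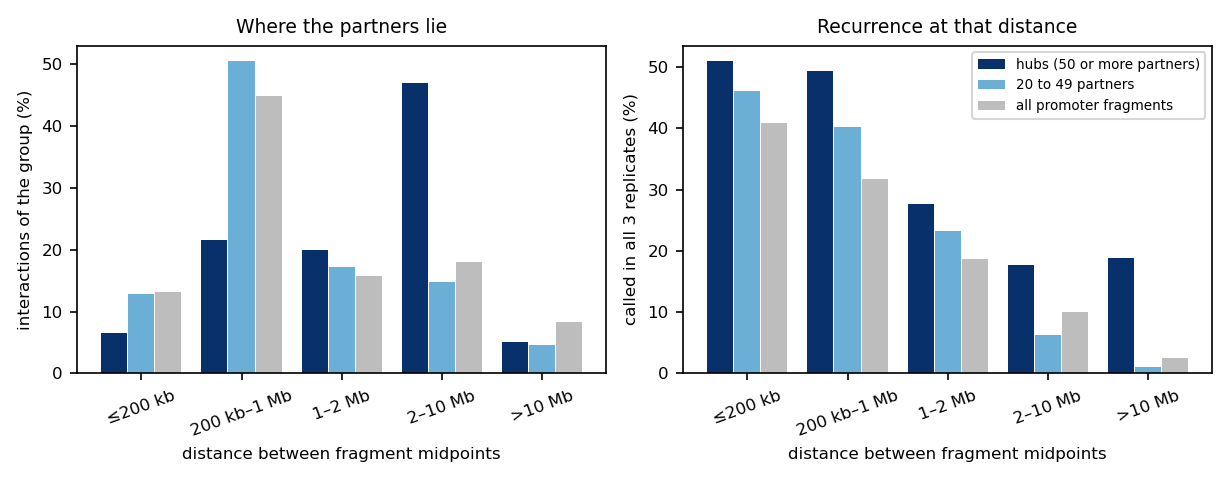
Share of interactions in each class of distance (left) and share of the interactions of that class called in all 3 replicates (right), both in percent with axes from 0, for hubs, for promoter fragments with 20 to 49 partners and for all promoter fragments. Hubs had 46.8% of their interactions at 2 to 10 Mb, and their share in all 3 fell from 51.0% up to 200 kb to 17.7% there.

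Partners of most hubs lay on a single side of the promoter. At least 90% of partners were on the same side in 297 hubs (71.7%, against 63.4% of fragments with 20 to 49 partners), and all of them were in 191 (46.1%). Of 259 such hubs with starts on 1 strand, 119 (45.9%) had their partners upstream, against 48.4% of such fragments with 20 to 49 partners and 49.4% of all. The side was mostly the gene-poor side. In 234 of the 297 (78.8%) fewer protein-coding starts lay within 3 Mb on the side of the partners than on the other side, in 57 more, and in 6 as many, with medians of 7 and 14 starts. Among fragments with 20 to 49 partners the share was 59.2%, and among all promoter fragments 54.5%.

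**Figure D3:**
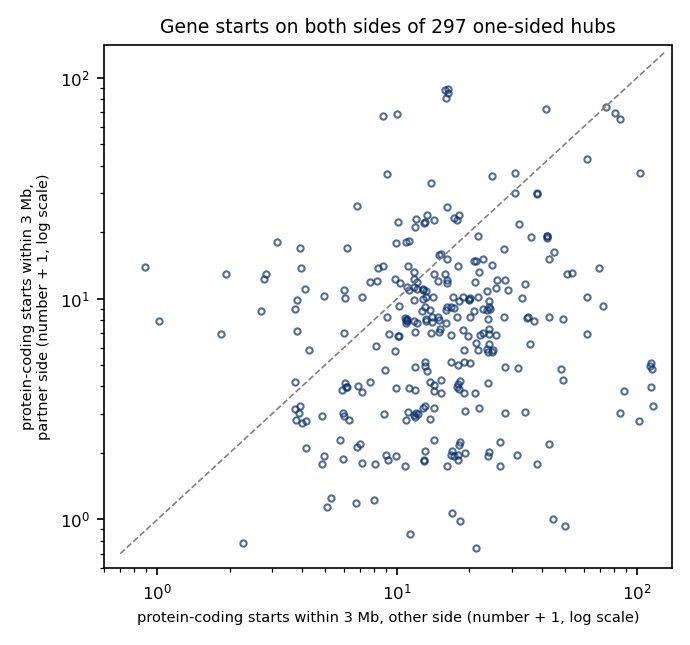
Protein-coding starts within 3 Mb of 297 hubs with 90% or more of their partners on 1 side, on the side of the partners (y axis) against the other side (x axis), both as number plus 1 on log scales, with 1 point per hub, moved slightly at random to separate ties, and a line of equality. Points under the line, 234 of 297, have fewer starts on the side of the partners.

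The partners of hubs overlapped genes less often than the partners over all interactions did. No gene overlapped 37.4% of partners (28.1% over all interactions), no protein-coding gene 56.4% (42.9%), and an exon lay in 23.7% (36.3%). Another captured promoter fragment was the partner in 826 hub interactions, which is 2.50% against 9.94% over all. With each contact between promoter fragments counted in both orders, and hubs chosen again, the shares were 6.80% and 17.9%. The median GC content of partners was 38.4%, against 40.9% over all, and their median length was 1915 bp against 2046 bp. Touching partners formed runs, and a hub had a median of 33 separate runs that covered 179 kb in all. The window of 500 kb with the most partners held a median of 70.6% of them, and it lay 1 Mb or more from the promoter in 266 hubs (64.3%), against 30% of fragments with 20 to 49 partners. Of the 24373 distinct partners, 5261 (21.6%) were shared by several hubs, at most by 13.

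By the median distance of their own partners the hubs fell along a range that was split for description at 1 Mb and 5 Mb. The 130 hubs with a median under 1 Mb had 46.6% of their 8522 interactions in all 3 replicates, and 18 of them had most partners inside their own gene. The 263 hubs with a median from 1 to 5 Mb had 22.0% of 22345 interactions in all 3, and their median share of partners outside protein-coding genes was 69.1% against 27.3% in the first set. The 21 hubs at 5 Mb or more had 27.5% of 2139 interactions in all 3. Among these 21, MSMB had 147 interactions in all 3, RNU2-38P had 120 and OR4K2 had 2 of 121. The median of unknown bases (N) between was 0.5 Mb for MSMB, 22 Mb for RNU2-38P and 0 for OR4K2. At least 90% of partners were on 1 side in 55.4% of the first set, 82.1% of the second and 42.9% of the third.

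Hubs of cardiac and signalling genes are given by list. Of the fragments with starts of cardiac transcription factors, 2 of 59 were hubs (3.39%), as were 2 of 42 of sarcomere and Z-disc genes (4.76%), 3 of 42 of ion channel and calcium handling genes (7.14%) and 6 of 106 of ligands and receptors of signalling pathways (5.66%), beside 2.25% of all promoter fragments. HAND2, needed for the ventricles and limbs of the embryo, had 74, 86 and 50 partners in replicates 1, 2 and 3 (70 ± 18.3, SD, n = 3) and 100 in the union. Replicate 3 was the lowest. Of these, 99 lay on the upstream side, 44 were called in all 3, and 85 lay in a window of 500 kb centred 548 kb away. Outside protein-coding genes were 81.0%, and 12 lay in CEP44, a gene of the centrosome. FOXO1, a forkhead factor of insulin signalling, had 30, 30 and 37 partners and 53 in the union, all downstream within 500 kb of each other. COG6, a part of a Golgi tethering complex, held 35 of them, with 23, 23 and 28 in the replicates.

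MYOZ2 and PDLIM5 were the hubs of Z-disc genes. MYOZ2, which binds the phosphatase calcineurin, had 54, 63 and 58 partners (58.3 ± 4.51, SD, n = 3) and 103 in the union. SYNPO2, whose protein binds actin at the Z-disc, held 23 of them at a median of 137 kb, with 18, 20 and 18 in the replicates and 15 in all 3. SEC24D, a part of the COPII vesicle coat, held 16. Of the MYOZ2 partners, 28 of 58 up to 1 Mb were called in all 3 replicates, and 0 of 45 over 1.5 Mb were. On the merged replicates it had 63 partners. PDLIM5, a PDZ and LIM domain protein, had 49, 47 and 51 partners and 74 in the union. Its own gene held 35, with 29, 25 and 30 in the replicates, and BMPR1B, a receptor for bone morphogenetic proteins, held 13, with 5, 8 and 3 and none in all 3. It had 45 on the merged replicates.

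RYR2 had 87, 87 and 54 partners (76.0 ± 19.1, SD, n = 3) and 112 in the union, and replicate 3 was the lowest here too. Of these, 75 lay in its own gene body, with 59, 63 and 41 in the replicates and 32 in all 3. The gene of methionine synthase, MTR, upstream, held 20, with 16, 15 and 6, and ACTN2, which encodes the alpha-actinin of the Z-disc, held 8, with 6, 6 and 3. The numbers in MTR, as in RYR2, were lowest in replicate 3. CACNA1G, a T-type calcium channel, had 45, 46 and 40 and 60 in the union, and 51.7% of them were in all 3 replicates. The neighbouring transporter gene ABCC3 held 17.

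Among signalling genes, the ephrin ligands had longer contacts than the Notch ligand and the receptors. EFNB2, the ephrin of arterial cells, had 77, 71 and 84 partners (77.3 ± 6.51, SD, n = 3) and 120 in the union. Their median distance was 2538 kb and 93.3% lay outside protein-coding genes. EFNA5, a ligand of ephrin A receptors, had 39, 36 and 47 partners and 62 in the union at a median of 3284 kb. JAG1, a ligand of Notch, had 41, 38 and 42 and 50 in the union. All of the JAG1 partners lay upstream in a window of 500 kb, none overlapped a protein-coding gene, and 66.0% were called in all 3 replicates. FGFR2, a receptor of fibroblast growth factors, had 70, 62 and 63 partners and 84 in the union at a median of 495 kb, of which 57.1% were in all 3 and 95.2% outside protein-coding genes. PDGFRA, a receptor of platelet-derived growth factor, had 44, 44 and 45 and 62 in the union, and SCFD2 held 34 of them, with 27, 28 and 26. IGF1R, a receptor of insulin-like growth factors, had 45, 58 and 58 and 69 in the union, and 51 lay in its own gene, with 32, 42 and 42. The distances of these hubs ranged from inside the gene to several Mb.

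**Figure D4:**
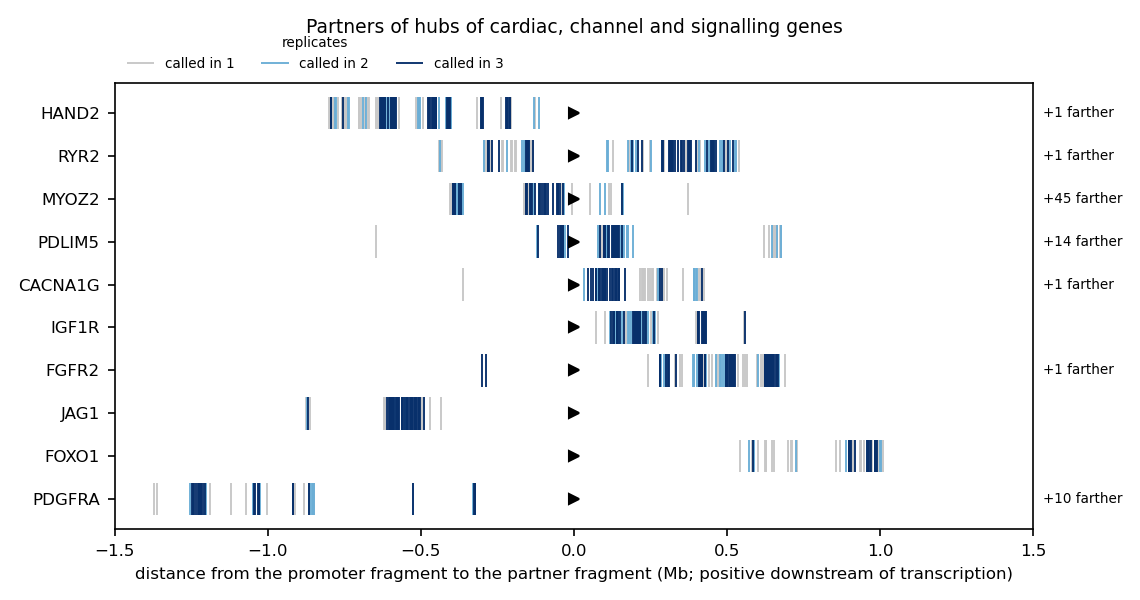
Partners of 10 hubs of cardiac, channel and signalling genes along the direction of transcription, with the distance from the promoter fragment in Mb on the x axis, 1 line per partner coloured by the number of replicates that called it, and the number of partners beyond the axis at the right. HAND2 and JAG1 had their partners upstream, FGFR2 and FOXO1 downstream, and RYR2 had 75 of 112 within its gene.

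The other lists covered clustered genes, other developmental factors, and genes that most cells use. Hubs were 18 of 222 fragments with olfactory receptor starts (8.11%), 4 of 45 of histone genes (8.89%), 2 of 36 of HOX genes (5.56%), 6 of 101 of SOX, PAX and other developmental factor genes (5.94%) and 14 of 316 of LINC RNAs (4.43%). They were 0 of 33 of protocadherin genes, 1 of 76 of ribosomal protein genes (1.32%), 2 of 101 of oxidative phosphorylation genes (1.98%), 5 of 300 of zinc finger (ZNF) genes (1.67%) and 8 of 498 of microRNA genes (1.61%). All of these stand beside 2.25% of all promoter fragments and were not tested, since the numbers of partners chose the hubs and clustered genes share neighbours.

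The hubs whose contacts were most often shared lay at short distances. The SNORA75/SNORD20 fragment, with small nucleolar RNAs hosted by the nucleolin gene, had 53, 53 and 52 partners, and 82.8% of the 58 in the union were in all 3 replicates. PSMD1, a proteasome subunit, held 31 of them and ARMC9 19. The neighbouring lncRNA hub ENSG00000233538 had 46, 51 and 57 partners with 73.3% of 60 in all 3, and it also had most of them in PSMD1 (32) and ARMC9 (18). RBPMS, an RNA-binding protein, had 66, 68 and 67 partners and 80.0% of 75 in all 3, LNCRNA-IUR had 53, 45 and 48 with 78.2% of 55, and VPS41, a part of the lysosomal HOPS complex, had 46, 45 and 46 with 75.5% of 53. These 5 hubs had between 45 and 68 partners in every replicate and median distances from 177 kb (RBPMS) to 578 kb (LNCRNA-IUR).

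The shortest medians belonged to several regions, and most of the longest named here belonged to the surroundings of the chromosome 1 centromere. Among the shortest were those of ISG20L2/METTL25B at 145 kb, WFIKKN2 at 146 kb, and ENSG00000251665/ENSG00000247011 and PTPRJ at 147 kb each. The ISG20L2/METTL25B fragment had 39, 45 and 44 partners, and PTPRJ, a receptor tyrosine phosphatase, had 39, 25 and 33. The longest was that of the olfactory receptor gene OR4K2 at 62989 kb, with 45, 40 and 44 partners, of which 1.65% of the 121 in the union were called in all 3 replicates. The next were ZNF697/PHGDH at 24807 kb, PHGDH (the first enzyme of serine synthesis) at 24793 kb, RNU2-38P at 24701 kb and PDE4DIP (a protein of the Golgi and centrosome) at 24690 kb. These 4 lie on either side of the chromosome 1 centromere.

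Nearly all contacts over 10 Mb that were called in all 3 replicates lay across the chromosome 1 centromere. Of the 1701 in hubs, 818 spanned 1 Mb or more of unknown bases (N) in GRCh37 and 316 of them were in all 3 replicates, while 883 did not and 3 of those were. Across the chromosome 1 centromere, 18 hubs had 706 interactions at a median of 24730 kb, of which 316 (44.8%) were in all 3, and of the other 112 that spanned such bases 0 were. A median of 22.0 Mb of N lay between, which leaves 2730 kb of known sequence. RNU2-38P led to the loci named next, which were chosen after their values were seen. The hubs at chr1:119907842-120440812 (among them HAO2, ZNF697/PHGDH, PHGDH, REG4 and ADAM30) sent 334 interactions (75.4%) to within 500 kb of the hubs at chr1:144941765-145551233, with 274, 284 and 287 in the replicates (282 ± 6.81, SD, n = 3) and 227 in all 3. In the other direction only RNU2-38P and PDE4DIP sent interactions, 215 in number, with 152, 143 and 139 in the replicates and 86 in all 3. These were 32.7% of the 657 interactions of the hubs at chr1:144941765-145551233. The hubs of GNRHR2 and ANKRD35 also lie in the second set. How far the unknown bases set these distances was not tested.

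Many hubs lay near another hub. How other promoter fragments group at the same gap was not analysed, so this is not shown to be particular to hubs. With gaps of up to 1 Mb the 414 hubs formed 234 loci, of which 149 had a single hub and 85 held the other 265. The largest, at chr9:107264877-107694252, had 10 hubs and 1310 interactions with 382 distinct partners, 60.7% of them shared by several hubs. It holds the olfactory receptor genes OR13F1, OR13C4, OR13C3, OR13C8, OR13C5, OR13C2, OR13C9 and OR13D1, the gene NIPSNAP3A and ABCA1, a cholesterol transporter. OR13D1 had 143, 136 and 151 partners and NIPSNAP3A had 143, 143 and 141. OR13C4 was the lowest of the receptor genes, with 17, 34 and 38, and 4.55% of its 66 partners were in all 3 replicates. ABCA1 had 34, 37 and 42, and unlike the other 9 hubs it had its partners at a median of 460 kb.

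The partners of this locus were the fragments around another group of hubs, about 3 Mb away. Of its 1310 interactions, 1175 (89.7%) landed within 500 kb of the locus of GRIN3A and PPP3R2, with 6 hubs at chr9:104077022-104501962 (SNORA31, TMEM246-AS1, PGAP4, RNF20, PPP3R2 and GRIN3A). They numbered 712, 778 and 787 in replicates 1, 2 and 3 (759 ± 41.0, SD, n = 3), with 399 in all 3. In return those 6 hubs sent 628 of their 809 interactions (77.6%) to the first locus and its margin, with 420, 425 and 438 (428 ± 9.29, SD, n = 3) and 247 in all 3. The chr9 fragment printed above lies in this target region. GRIN3A and PPP3R2 had all their partners upstream of their starts, 94.0% and 90.7% of them outside protein-coding genes, and SMC2, a condensin subunit, held 11 of each. They shared 170 partners, 82.9% of those of PPP3R2 and 68% of those of GRIN3A. Contacts of the same fragments seen from both ends are not independent where both ends are promoters, and neighbouring promoters share their surroundings.

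**Figure D5:**
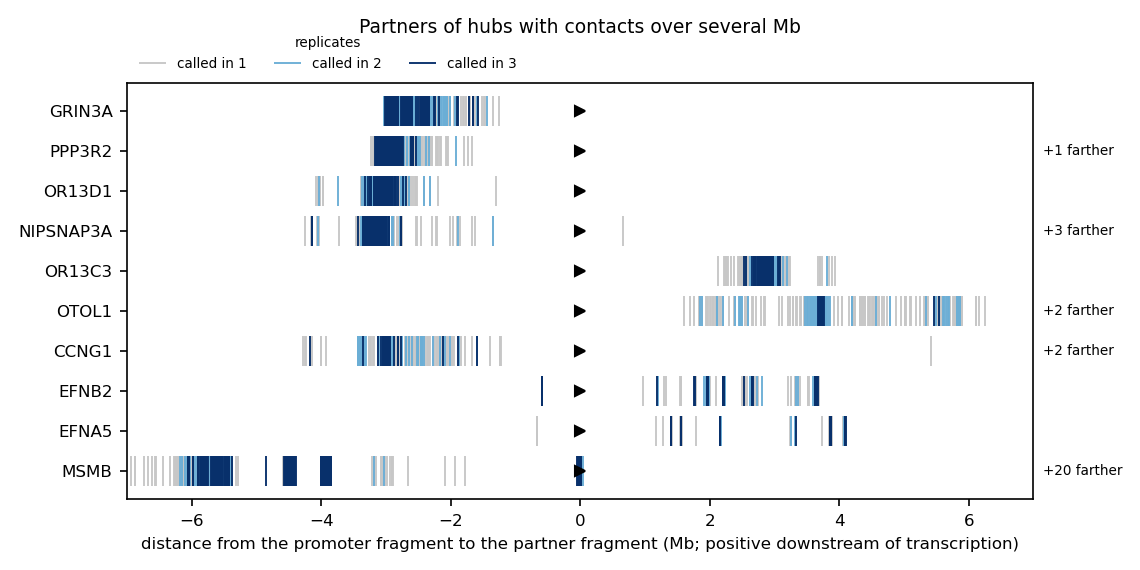
Partners of 10 hubs with contacts over several Mb along the direction of transcription, with the distance from the promoter fragment in Mb on the x axis, 1 line per partner coloured by the number of replicates that called it, and the number of partners beyond the axis at the right. GRIN3A and PPP3R2 had blocks of partners about 3 Mb away, and OTOL1, with 5.32% of 282 partners in all 3 replicates, had partners spread over several Mb. Between MSMB and its partners lay a median of 0.5 Mb of unknown bases (N).

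Such facing loci occurred elsewhere, and those named here were chosen after their values were seen. In 12 pairs of loci at least 50 interactions of the hubs of 1 locus landed within 500 kb of the other, and in 9 of the pairs this held in both directions. The hubs at chr5:82874840-83494305 sent 489 interactions (76.2%) to those at chr5:85910328-86565202, with 260, 258 and 257 in the replicates and 83 in all 3, and received 291 (89.0%), with 144, 127 and 148. Those at chr3:108737915-109216733 sent 293 (93.3%) to chr3:111254873-111318147, with 131, 154 and 156, and received 203 (98.1%), with 99, 102 and 117. Totals differed little between replicates, while 11.7% to 17% of the interactions in these 4 directions were called in all 3. Of 359 pairs of hubs that shared 10 or more partners, 168 had the partners on the same side and 26 faced each other from opposite sides.

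The next loci by number were 3 with 7 hubs each. At chr5:159766712-160112688 (CCNJL, FAM200C, SLU7/PTTG1, ATP10B and others with no protein-coding start) they had 530 interactions, and 320 of them (60.4%) went to the CCNG1 region, with 198, 193 and 206. CCNG1 and its neighbours sent 244 back (69.9%), with 125, 119 and 140. In the CCNG1 hub itself 36 partners lay in ATP10B, a membrane lipid flippase gene, and 22 in GABRB2, a GABA receptor subunit, with 14.7% of all its partners in all 3 replicates. At chr2:142888968-144332378 the 7 hubs had no protein-coding start and 731 interactions. At chr6:75904747-76577394 they had 532, and they included COL12A1, a collagen, COX7A2, a subunit of cytochrome c oxidase, and MYO6, a myosin. FILIP1, whose protein binds filamin A, had the most partners there, at 107. In these loci AC013444.2 had 31 partners without replicate 3, RNU1-34P had 44 without replicate 3, and RNA5SP209/snoU13 had 36 without replicate 1.

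Some hubs rested on 1 replicate. In 6 of the 414 a replicate had over 2 times the mean of the others, and these were chosen after their values were seen. ENSG00000225420 on chromosome 2 had 22, 29 and 146 partners, GSK3A/ERF had 13, 13 and 52, and ABCC3 had 26, 17 and 50, with replicate 3 the highest in each. A fragment with no start on chromosome 14 had 12, 31 and 14 and THNSL2 had 26, 46 and 14, with replicate 2 the highest, and AL354741.1 had 34, 18 and 15. None of the 6 reached 50 in more than 1 replicate, and 7.55% of the ENSG00000225420 partners were in all 3.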

How the data were processed

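PCHi-C was run on 3 biological replicates of hESC-CM. Per the methods, the authors processed reads with HiCUP and ran CHiCAGO with its default settings, and the submitters' processing notes name GRCh37. Tool versions are not given in the sources used here. The deposited values are CHiCAGO scores of 5 or more for pairs of fragments, per replicate and for merged replicates, with no score recomputed. Calls per replicate numbered 112473, 109731 and 110740. Read depth was not analysed here, so no counting interval is given.

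An interaction was an ordered pair of promoter and partner fragments with exact coordinates, and distances are between midpoints. All 122042 fragments of same-chromosome calls were bounded by HindIII sites, or by the end of a chromosome, in GRCh37. Genes were named by GENCODE v44 transcript starts lifted to GRCh37. Near-identical copies were searched with minimap2 2.31-r1302. Python 3.11.15, pandas 2.3.3, numpy 2.4.6, pysam 0.24.0, samtools 1.23.1 and matplotlib 3.10.9 were used, and the counting was tested on simulated data.

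Hubs named are the 10 with the most partners, the 5 with the highest share in all 3 replicates, the 5 with the longest and the 5 with the shortest median distances, those of 4 gene lists, those of the loci with the most hubs (3 tied for the second place), and fragments at the limit. Some of these are not reported here. Members and lists were chosen with earlier results of these data known. There was 1 group and the values chose the members, so no test was made. Alternatives were higher scores, each replicate left out, merged calls, both orders of a pair, up to 1 Mb, calls in 2 or more replicates, runs in place of partners, and other limits.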

Additional observations from a re-analysis of the deposited data

Results flagged for a closer look

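The calls on the merged replicates, which were not used to choose hubs, gave 50 or more partners to 81 promoter fragments that had fewer than 50 in the union of the 3 replicates. The examples that follow were chosen after their values were seen. TEX37 on chromosome 2 had 127 partners on the merged replicates and 15 in the union. KCNMA1, a calcium-activated potassium channel, had 79 and 49, and CXCL12, a chemokine, had 75 and 44. TBX2, a transcription factor of the heart chambers, had 61 and 47, and MEIS1, a homeobox cofactor, had 52 and 45.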

How the results depend on the processing

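The number of hubs, 414 in the union, was 108 with a score of at least 7, 33 with at least 10, 260 to 280 with a replicate left out, 263 on the merged replicates, 469 with both orders of a pair, 93 up to 1 Mb, 95 with calls in 2 or more replicates, 99 with 50 or more runs of touching partners, 688 with a limit of 40 and 154 with 75. Without replicate 3 it was 260, and no other replicate left out moved this number by over 1.5 times. Of the 263 fragments on the merged replicates, 182 were among the 414 hubs and 81 were not. As a share of promoter fragments, 2.25%, the same settings gave 0.877%, 0.521%, 1.50% to 1.61%, 1.75%, 2.52%, 0.671%, 0.822%, 0.537%, 3.74% and 0.836%. As a share of interactions, 17.1%, they gave 11.0%, 8.65%, 13.0% to 13.9%, 12.3%, 17.5%, 5.41%, 8.46%, 6.24%, 23.4% and 9.18%. The share of hub interactions in all 3 replicates, 28.7%, was 30.1% and 36.5% with the higher scores, 29.6% with both orders, 51.7% up to 1 Mb, 61.2% with calls in 2 or more replicates, 18.1% with runs, and 29.7% and 26.6% with limits of 40 and 75. With a replicate left out it is the share called in both that remain, 43.8% to 44.4%, and merged calls give none. The median distance of 2069 kb became 2642 and 3038 kb with the higher scores, 2061 to 2096 kb with a replicate left out, 552 kb on the merged replicates, 1978 kb with both orders, 375 kb up to 1 Mb, 2057 kb with calls in 2 or more replicates, 2889 kb with runs, and 1734 and 2506 kb with limits of 40 and 75. The share over 1 Mb, 72.0%, became 83.8%, 97.0%, 71.3% to 71.9%, 36.1%, 70.1%, 68.6%, 92.5%, 64.3% and 83.5% in the same order, with no value up to 1 Mb. The median number of runs, 33.0, became 32.5, 28.0, 33.0 to 33.0, 22.0, 32.0, 20.0, 26, 63.0, 26 and 53.0. The share of partners that are promoter fragments, 2.50%, became 2.24%, 2.25%, 1.93% to 2.28%, 1.45%, 6.80%, 1.80%, 1.36%, 2.92%, 3.42% and 1.93%. Of the 68 hubs named by the rules, 35 kept 50 or more partners at scores from 7 up, 39 on the merged replicates, 54 with each replicate left out in turn, 32 with calls in 2 or more replicates and 18 up to 1 Mb. The causes of these shifts were not tested, apart from those that follow from fewer calls. No paired analysis was possible because the 3 replicates form 1 group.

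Pairs that scored under 5 are not listed, and touching partner fragments are counted apart. Sequencing depth was not analysed here, and how partner numbers vary with depth or with the length of HindIII fragments was not tested.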

Other observations

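Hubs with most partners inside their own gene were looked at after their values were seen. In 19 hubs 50% or more of the partners lay in the body of the hub's own gene, and in 346 none did. FHOD3, a formin needed to build sarcomeres, had 63, 57 and 63 partners in replicates 1, 2 and 3, and 73 of the 74 in the union lay in its gene. PLCL1, a protein related to phospholipase C, had 84, 83 and 90, with 90 of 107 in its gene. FRAS1, a protein of the extracellular matrix, had 73, 75 and 72, with 90 of 95. LDLRAD4, an inhibitor of TGF-beta signalling, had 73, 67 and 75, with 64 of 89. The shares in all 3 replicates were 66.2%, 62.6%, 50.5% and 62.9%, and all partners of these 4 hubs lay on the side of transcription. CNTNAP2, a neuronal adhesion protein, had 39, 41 and 46, with 60 of 61 in its gene at a median of 2010 kb, and 39.3% were in all 3.

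Hubs of developmental transcription factors outside the cardiac list were also chosen after their values were seen. FOXP2, a forkhead factor, had 82, 89 and 88 partners and 118 in the union, all of them downstream at a median of 1748 kb. EN1, a homeobox factor of the midbrain, had 64, 81 and 76 and 103 in the union, all downstream as well, and 93.2% of them lay outside protein-coding genes. OSR1, a zinc finger factor of the kidney and heart, had 75, 63 and 61 and 83 in the union, of which 60.24% were in all 3 replicates. POU3F2, a neural factor, had 68, 72 and 76 and 100 in the union, and 99% of those lay upstream.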
